A study of Drosophila melanogaster with 6 samples.

Results

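The yellow gene family of Drosophila melanogaster was followed across 3 genotypes in which the transcription factor gene grainy head (grh) was normal, mutated or overexpressed. A gene was a member if an array probe set carried its symbol, updated to the current name, and no other. This gave 10 members, y, yellow-b, yellow-d, yellow-d2, yellow-e, yellow-e2, yellow-e3, yellow-f, yellow-f2 and yellow-h, each read by 1 probe set, among 17104 genes and unnamed probe sets on the array. Transcript levels had been measured in whole embryos at stage 16 with Affymetrix arrays, 2 arrays for each genotype and 6 in all. Wild type was strain w1118, the mutant carried the allele grhB37, and overexpression was of grh under 69B (69B>grh), a GAL4 driver line active in the embryonic ectoderm. All groups were at stage 16, and none carried the driver without the grh transgene. The labels do not say whether the mutant embryos were homozygous, whether the strains shared a genetic background, or whether the 2 arrays of a genotype came from separate embryo collections. The differences below are therefore between strains, in which grh, background and driver cannot be told apart, and the p-values cover no spread beyond that of these arrays, which may be technical.

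Yellow proteins are secreted and are relatives of the major royal jelly proteins of the honeybee. The founding member, y, is needed to lay down black melanin in the cuticle, including the mouthparts and denticles of the larva, which are formed in the late embryo. Melanin is made from tyrosine by way of DOPA and dopamine, and yellow-f and yellow-f2 encode enzymes that convert dopachrome, an intermediate of that route. Grh is a transcription factor of the epidermis that is required for normal cuticle, and Ddc, the gene of dopa decarboxylase, is among its long-known targets.

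The values are log2 probe set signals as the authors deposited them, with a floor of 2.27 shared by all arrays, so that a difference of 1 is 2-fold. A probe set was called dim in a group when both arrays read under 4, and was tested if at least 2 of the 6 arrays reached 4. Of the 10 members 8 passed, none of them through a single group alone. Changes were tested with limma across 8632 rows (1 row for a gene) and called at a Benjamini-Hochberg adjusted p under 0.05. Where 1 group was dim, its fold is written "at least" and was taken against 4. The number of arrays limits the precision. Replicate arrays of the tested members lay a median of 0.07 log2 units apart, and the widest gap was 0.31, for yellow-e2 in wild type.

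The grh probe set read 7.36 and 7.45 on the wild type arrays, 9.05 and 9.02 on the arrays labelled grh mutant, called mutant-labelled below, and 12.27 and 12.38 in grh overexpression. Its level was thus raised, not lowered, under the mutant label (log2 fold change 1.63, limma adjusted p = 1.59e-10). Another probe set of grh, dim in every group, read 3.25 ± 0.05 (SD, n = 2), 3.53 ± 0.02 and 2.46 ± 0.10 in the same order. The probes' place in the transcript is not known here, so the mutant label was not checked by this value and every direction involving those arrays rests on the label.

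Most of the family was higher in grh overexpression and several members were lower in the mutant-labelled arrays, while y went the other way in both. The widest span belonged to yellow-d2, which was dim in the mutant-labelled arrays and read over 10 in overexpression. The members yellow-d, yellow-e2 and yellow-b also had their lowest level in the mutant-labelled arrays and their highest in overexpression. For yellow-e and yellow-f2 only the change in overexpression was called against wild type. The level of yellow-h was highest in wild type, and yellow-e3 and yellow-f were dim throughout. Since whole embryos were measured, fewer cells that make a transcript and less of it in each cell cannot be told apart.

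**Figure D1:**
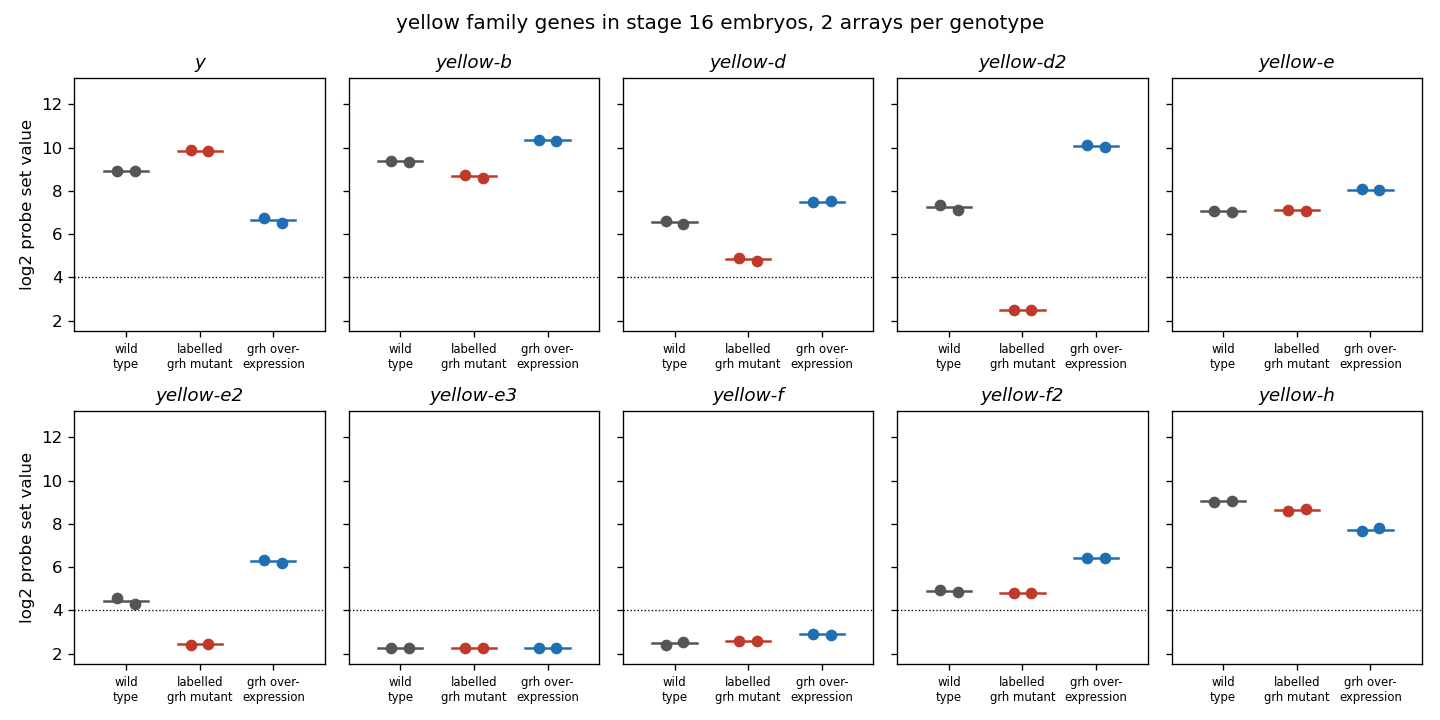
The log2 signal (y axis) of each of the 10 members is shown for wild type, the mutant-labelled arrays and grh overexpression. Points are the 2 arrays of a genotype, horizontal bars their mean, and the dotted line at 4 is the level under which a probe set was called dim. The values of y fall from 9.85 in the mutant-labelled arrays to 6.63 in overexpression, those of yellow-d2 climb from 2.50 to 10.09, and yellow-e3 and yellow-f stay under the line.

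The founding gene y (probe set 1633285_at, chromosome X) read 8.93 and 8.90 in wild type, 9.88 and 9.83 in the mutant-labelled arrays and 6.74 and 6.53 in grh overexpression. No 2 groups overlapped. With 2 arrays a group this also held for yellow-e and yellow-f2 in comparisons that did not pass, so it does not set y apart. It rose 1.92-fold in the mutant-labelled arrays (log2 fold change 0.94, SE 0.07, limma adjusted p = 1.13e-07). In overexpression y fell 4.87-fold against wild type (log2 fold change -2.28, adjusted p = 3.65e-11), and ranked 116 by size among the falls of all rows tested. Between overexpression and the mutant-labelled arrays the difference was 9.34-fold (log2 -3.22, adjusted p = 1.11e-12). The gene ovo, whose Shavenbaby product is known to act on y in the embryonic epidermis, fell by 0.47 log2 units in overexpression (limma adjusted p = 7.65e-06), from 7.85 ± 0.04 to 7.37 ± 0.04 (SD, n = 2). Of all rows tested, 25.5% fell at least as far as ovo in overexpression against wild type. In the mutant-labelled arrays ovo read 7.97 ± 0.01 and did not pass the test against wild type. A part of ovo in the changes of y was not tested, and ovo was named after its values were seen.

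Among the remaining members, the dopachrome-converting enzyme gene yellow-f2 (1625835_at, chromosome arm 3R) read 4.94 and 4.86 in wild type, 4.82 and 4.81 in the mutant-labelled arrays and 6.42 and 6.41 in overexpression. The overexpression arrays stood apart from the other 4. Its rise over wild type was 2.85-fold (log2 1.51, SE 0.07, limma adjusted p = 3.60e-09). Against wild type, the mutant-labelled arrays differed by -0.09 (95% interval -0.25 to 0.07, adjusted p = 0.289), which did not pass. The partner enzyme gene yellow-f (1637370_at) was dim on every array, at 2.41 and 2.55 in wild type, 2.57 on both mutant-labelled arrays and 2.92 and 2.87 in overexpression. It was not tested, and a level this near the floor carries no fold.

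The steepest response belonged to yellow-d2 (1629932_at, arm 2R), whose product has no function that can be stated here. It read 7.36 and 7.12 in wild type, 2.50 on both mutant-labelled arrays and 10.12 and 10.05 in overexpression. The identical pair of low values lies near the floor of the scale, so its zero spread is no measure of precision. Against wild type the gene was at least 9.46-fold lower in the mutant-labelled arrays (limma adjusted p = 2.20e-12), and 7.19-fold higher in overexpression (log2 2.85, SE 0.08, adjusted p = 3.40e-11). From the mutant-labelled arrays to overexpression it rose at least 68.0-fold (adjusted p = 1.00e-14). By fitted values it ranked 7 among the falls in the mutant-labelled arrays and 11 among the rises between the altered genotypes, though the place of a dim gene in such an order is not settled.

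Its neighbour yellow-d (1625058_at, arm 2R) read 6.58 and 6.49 in wild type, 4.92 and 4.77 in the mutant-labelled arrays and 7.46 and 7.54 in overexpression. The order of the genotypes was that of yellow-d2, with smaller steps and all groups measured. It fell 3.23-fold in the mutant-labelled arrays (log2 -1.69, SE 0.08, limma adjusted p = 2.78e-09) and rose 1.95-fold in overexpression (log2 0.96, adjusted p = 2.81e-07). Between the altered genotypes the difference was 6.30-fold (adjusted p = 1.94e-11).

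The probe set of yellow-e2 (1633841_at, arm 3R) read 4.59 and 4.28 in wild type, 2.42 and 2.43 in the mutant-labelled arrays and 6.34 and 6.19 in overexpression. The wild type level lay just above the limit for dim signals. The fitted change in the mutant-labelled arrays was -2.01 log2 units (limma adjusted p = 9.14e-09), of which the data bound only a fall of at least 1.35-fold. Overexpression was 3.54-fold above wild type (log2 1.82, SE 0.11, adjusted p = 1.56e-08) and at least 4.79-fold above the mutant-labelled arrays (adjusted p = 1.24e-11).

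By contrast yellow-e (1627855_at, arm 3R), next to yellow-e2 in the annotation, read 7.07 and 7.03 in wild type, 7.12 and 7.07 in the mutant-labelled arrays and 8.08 and 8.02 in overexpression. Wild type and the mutant-labelled arrays differed by 0.05 log2 units (95% interval -0.08 to 0.17, limma adjusted p = 0.487), less than the test can resolve. In overexpression the gene rose 2.001-fold over wild type (log2 1.001, SE 0.06, adjusted p = 1.65e-08) and 1.94-fold over the mutant-labelled arrays (adjusted p = 1.49e-08). The third gene of that row, yellow-e3 (1630540_at), read 2.27 on all 6 arrays, was dim, and was not tested.

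The probe set of yellow-b (1628927_at, arm 2L) read 9.40 and 9.34 in wild type, 8.73 and 8.61 in the mutant-labelled arrays and 10.34 and 10.32 in overexpression. Its fitted step from wild type was smaller in the mutant-labelled arrays than in overexpression, a difference that was not tested. It fell 1.62-fold in the mutant-labelled arrays (log2 -0.70, SE 0.05, limma adjusted p = 1.36e-07) and rose 1.95-fold in overexpression (log2 0.96, adjusted p = 6.88e-09). Between the altered genotypes it differed 3.17-fold (adjusted p = 3.11e-11).

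On chromosome 4, yellow-h (1633329_at) read 9.02 and 9.06 in wild type, 8.62 and 8.70 in the mutant-labelled arrays and 7.66 and 7.79 in overexpression. It was the only tested member to fall in both altered genotypes against wild type. The fall was 1.30-fold in the mutant-labelled arrays (log2 -0.38, SE 0.06, limma adjusted p = 7.67e-05) and 2.48-fold in overexpression (log2 -1.31, adjusted p = 1.33e-09). Overexpression lay 1.91-fold under the mutant-labelled arrays (adjusted p = 1.61e-08). The protein-coding genes on either side of it, CG31999 and CG1674, which were picked out after their values were seen, rose 5.01-fold and 2.58-fold in the mutant-labelled arrays and fell 2.26-fold and 3.23-fold in overexpression (limma adjusted p = 6.36e-09 or less for each).

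**Figure D2:**
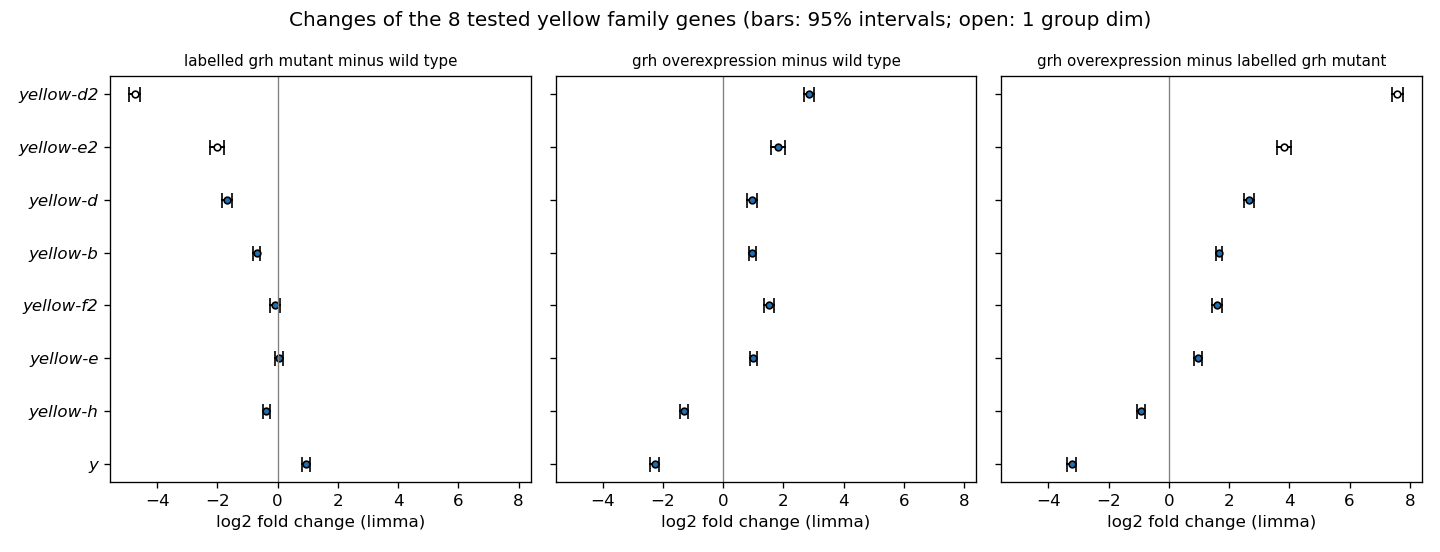
Points give the limma log2 fold change (x axis) of each of the 8 tested members in the 3 comparisons, with bars for the 95% interval. Open points mark comparisons in which 1 group was dim, where the fitted value is not a bound. In overexpression against wild type 6 members lie right of 0 and yellow-h and y left of it. In the mutant-labelled arrays against wild type the intervals of yellow-e and yellow-f2 include 0.

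In the mutant-labelled arrays 1 of the 8 tested members rose, y, against 36.3% of all rows tested, and 5 fell, against 44.6%. In overexpression 6 rose, where 36.0% of all rows did, and 2 fell, where 44.1% did. Most of the 8632 rows tested were thus called in each comparison, and being called in one direction or the other sets no member apart. Centring each array on its median left the members' split at 6 higher and 2 lower, but lowered the share of higher ones among all called rows from 44.93% to 33.03%. Between overexpression and the mutant-labelled arrays 6 members were higher and 2 lower, against 42.9% and 43.7% of all rows. The 3 comparisons share their arrays in pairs, so they are not separate lines of evidence.

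The sizes of the changes gave a narrower background. Called changes of at least 2-fold by fitted values were made by 3 of the 8 members in the mutant-labelled arrays (yellow-d, yellow-d2 and yellow-e2), against 17.8% of rows. The fall of yellow-e2, dim there, is bounded only at 1.35-fold. In overexpression against wild type 6 of 8 members made such called changes, against 21.4% of rows. There yellow-b and yellow-d, at 1.95-fold each, lay just under the 2-fold line while yellow-e lay just over it. Between the altered genotypes there were again 6 of 8, against 36.1%. The median absolute log2 change of the tested members was 0.82, 1.41 and 2.16 in the 3 comparisons, beside 0.49, 0.46 and 0.69 for all rows, and the median signed change was -0.54, 0.98 and 1.63, beside -0.07, -0.08 and -0.01. These are descriptions of 8 genes chosen with earlier results known, and no test was made of the family as a set.

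**Figure D3:**
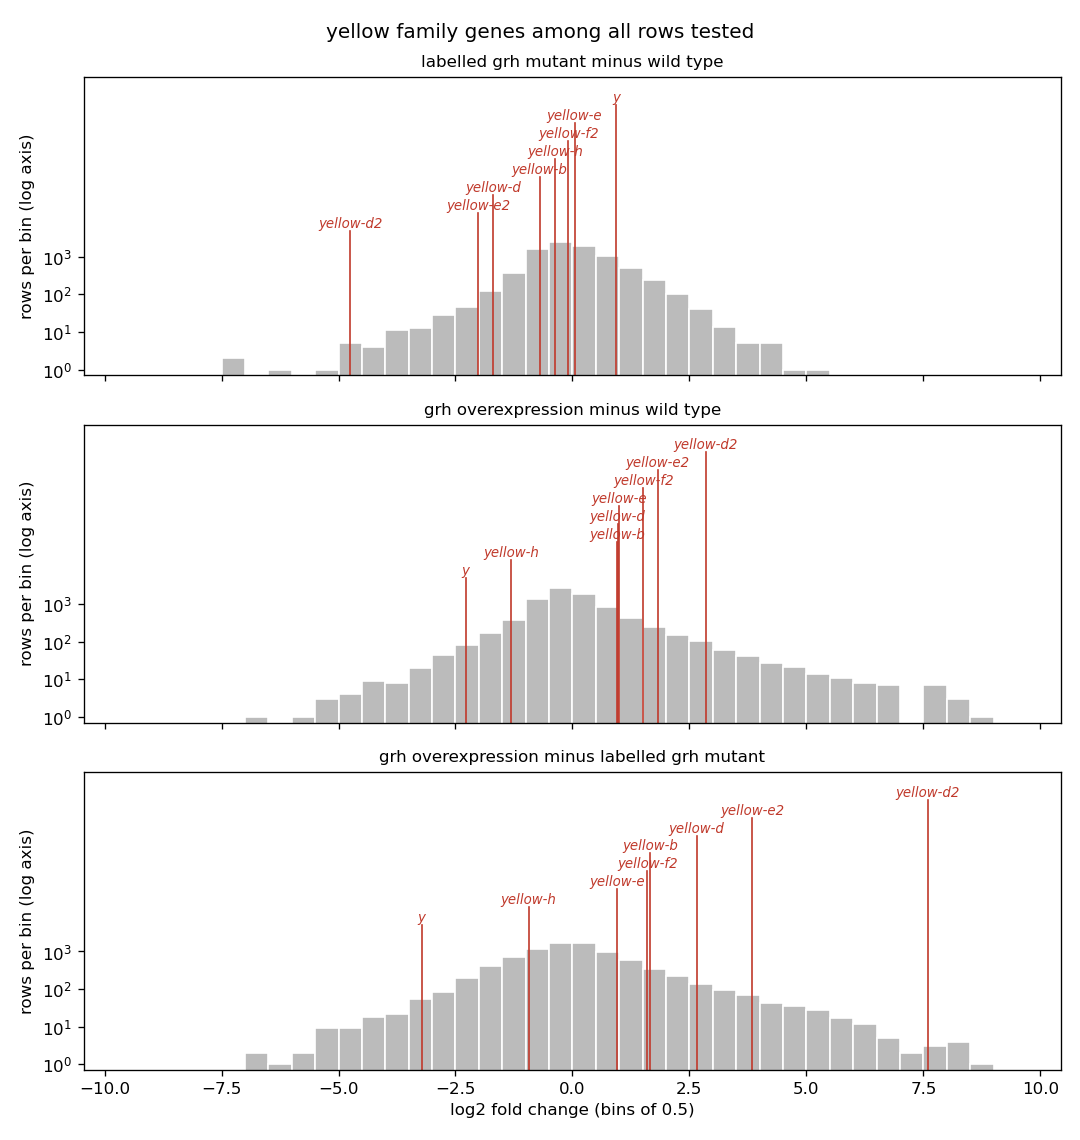
Grey bars count the rows (y axis, log scale) in bins of 0.5 of the log2 fold change (x axis) for each comparison, and red lines, whose heights only separate the names, mark the 8 tested members. In the mutant-labelled arrays yellow-d2, dim there, lies in the far left tail at a fitted -4.75, while yellow-e and yellow-f2 lie at the centre. In overexpression y lies in the left tail at -2.28 and yellow-d2 farthest right of the members, at 2.85.

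Several members are neighbours on their chromosomes, in the order of the reference gene table. The pair yellow-d and yellow-d2 lies next to each other on 2R, yellow-f and yellow-f2 on 3R, and yellow-e3, yellow-e2 and yellow-e follow each other on another stretch of 3R. The dim yellow-f lies beside the tested yellow-f2, and yellow-e3, also dim, beside the tested yellow-e2. Between yellow-e2 and yellow-e the change in the mutant-labelled arrays was -2.01 and 0.05, and in overexpression 1.82 and 1.001. For yellow-d and yellow-d2 it was -1.69 and -4.75 in the mutant-labelled arrays, and 0.96 and 2.85 in overexpression. Both yellow-e2 and yellow-d2 were dim in the mutant-labelled arrays, so -2.01 and -4.75 are fitted values. The data bound those changes only at -0.44 and -3.24 log2 units. The differences between neighbours were not tested.

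The genes just outside these groups were read as well, and their differences from the members were not tested. CG13551, before yellow-d, changed by -0.50 in the mutant-labelled arrays and by -0.43 in overexpression (limma adjusted p = 3.59e-07 and 1.29e-06), and CG30414, after yellow-d2, read 2.27 in each group and was not tested. CG7488, after yellow-f2, changed by -0.32 and -0.48 in the same comparisons (adjusted p = 0.000732 and 3.12e-05), while CG14383 on the other side read 2.27 in each group and was not tested. Ir87a, which by name encodes an ionotropic receptor and follows yellow-e, was measured only in the mutant-labelled arrays, at 4.52, and was dim at 3.20 in wild type and 2.60 in overexpression.

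**Figure D4:**
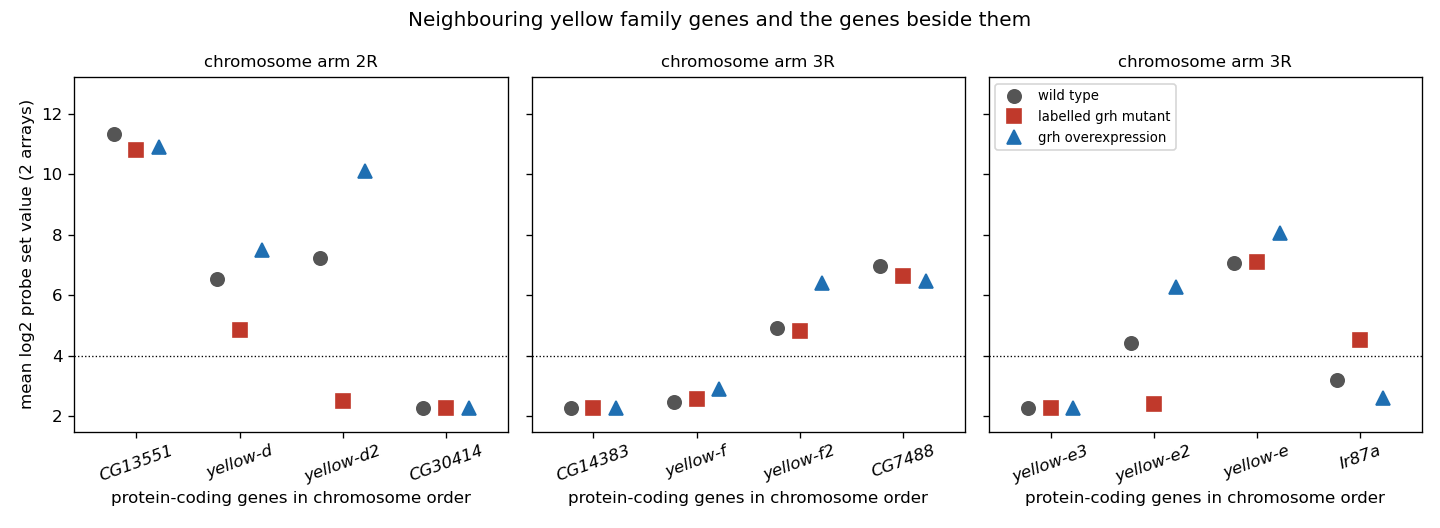
Mean log2 signals of 2 arrays (y axis) are shown for the neighbouring members and the protein-coding genes beside them, in chromosome order and not to distance. Circles are wild type, squares the mutant-labelled arrays and triangles grh overexpression, and the dotted line at 4 marks dim signals. The symbols of yellow-d2 spread from 2.50 to 10.09, while those of CG13551 lie between 10.81 and 11.32. The gene before yellow-e3, Dpm3, is not shown because no probe set carries it as its only symbol.

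The array also reads other genes of the family. The eggshell gene yellow-g was at the floor of 2.27 in wild type and in the mutant-labelled arrays and read 4.04 and 3.92 in overexpression, so that only 1 array reached the limit for testing. Its relative yellow-g2, also an eggshell gene, and yellow-k were at 2.27 on every array. No probe set had yellow-c as its only symbol, and it was not analysed here.

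A list of genes of melanin formation and cuticle tanning, with ovo as a regulator, was read beside the family. Of its 15 genes 13 had a probe set of their own, and 11 were tested. The gene of tyrosine hydroxylase, ple, and the prophenoloxidase gene PPO3 were dim on every array. In the mutant-labelled arrays 3 of the 11 rose and 7 fell, where 36.3% and 44.6% of all rows tested did, and the median log2 change was -0.57, beside -0.07 for all rows. In overexpression 7 rose and 4 fell, ovo among them, where 36.0% and 44.1% of all rows did, with a median of 0.39 beside -0.08. Between the altered genotypes 6 were higher and 4 lower in overexpression, against 42.9% and 43.7%, with a median of 1.71 beside -0.01. As for the family, the number called in either direction does not set the list apart.

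Ddc and its neighbour in function amd, which encodes a related DOPA-using enzyme, changed by -1.46 and -1.53 log2 units in the mutant-labelled arrays and rose by 0.39 and 1.53 in overexpression (limma adjusted p = 3.62e-06 or less). The laccase gene stw, whose enzyme oxidises catechols in the cuticle, read 10.18 and 10.21 in wild type, 9.02 and 9.19 in the mutant-labelled arrays and 11.15 and 11.23 in overexpression. Its brighter probe set fell by 1.09 and rose by 0.99, in that order (adjusted p = 7.01e-09 and 1.13e-08), and its other probe sets were dim on all arrays. Dhpr, which encodes dihydropteridine reductase, fell by 0.90 and rose by 0.81 (adjusted p = 4.16e-07 and 9.61e-07). These genes had the same order of genotypes as yellow-b, yellow-d, yellow-d2 and yellow-e2. Such an order was not tested in itself, and its share among all rows was not counted. The cuticle markers knk and kkv, given below, also had it, though not all markers of that list did.

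The GTP cyclohydrolase gene Pu and the gene e, whose enzyme couples dopamine to beta-alanine, rose in overexpression by 2.05 and 2.69 log2 units, and in the mutant-labelled arrays by 0.23 and 0.20 (limma adjusted p = 0.0134 or less). The gene t, which encodes the enzyme that reverses the step of e, fell in both, with log2 changes of -0.69 in the mutant-labelled arrays and -1.64 in overexpression (adjusted p = 5.99e-05 or less). The prophenoloxidase genes PPO1 and PPO2 also fell in both, with changes of -0.57 and -0.24 in the mutant-labelled arrays and of -1.59 and -1.54 in overexpression (adjusted p = 0.0013 or less). They are made in crystal cells, a kind of hemocyte.

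**Figure D5:**
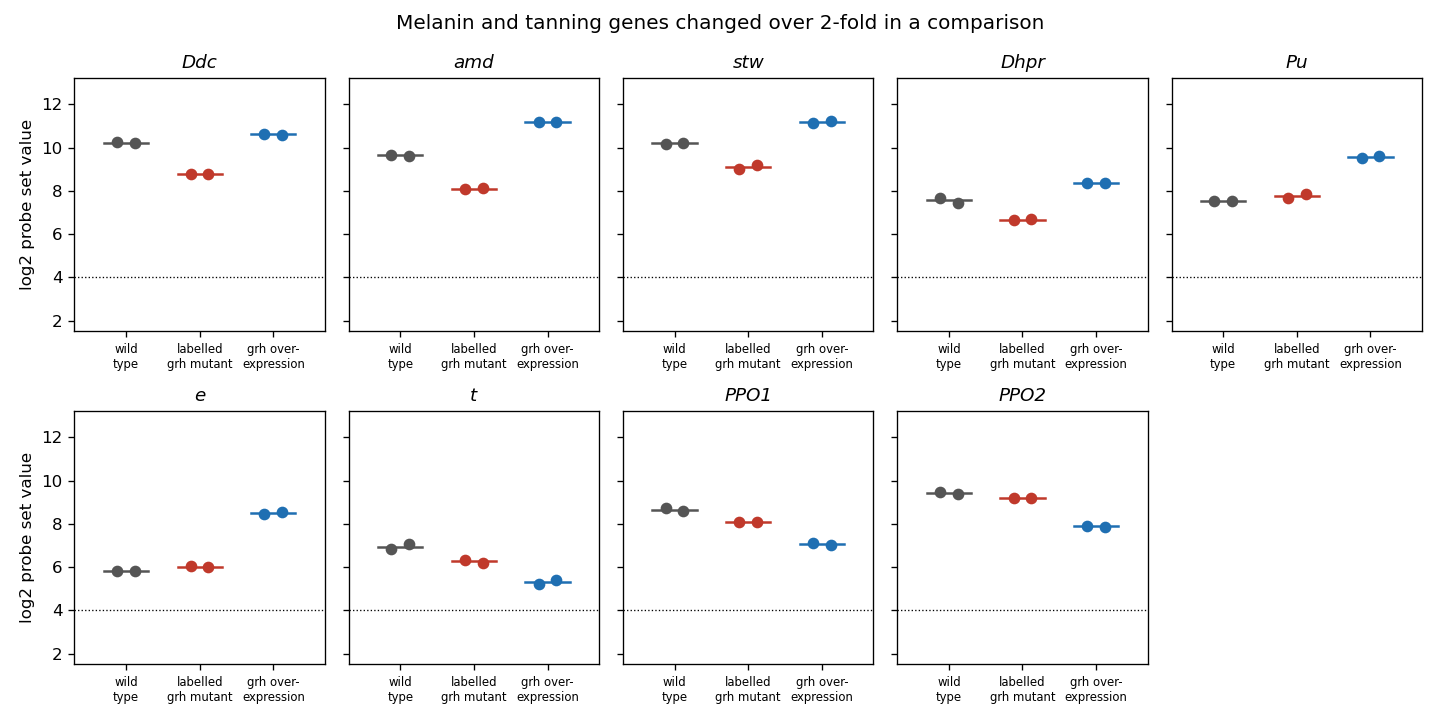
The log2 signal (y axis) of 9 melanin and tanning genes with a called change of more than 2-fold in at least 1 comparison is shown on the same scale as for the family. Points are the 2 arrays of each genotype, horizontal bars their mean, and the dotted line at 4 marks dim signals. Ddc, amd, stw and Dhpr are lowest in the mutant-labelled arrays and highest in overexpression, while t, PPO1 and PPO2 are lowest in overexpression.

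Markers of several tissues moved on the same arrays, and their part in the changes of the family was not tested. The summed signal of 7 epidermis and cuticle markers (kkv, knk, verm, serp, Tb, Gasp and TwdlT) lay between 14.31 and 14.33 on the log2 scale in wild type, between 14.29 and 14.30 in the mutant-labelled arrays and between 14.65 and 14.66 in overexpression, and none was dim throughout. Of the 7, 2 rose and 4 fell in the mutant-labelled arrays, and 4 rose and 2 fell in overexpression. The sum covers unlike members. The gene knk, needed for ordered chitin, read 6.54, 5.04 and 8.77 in wild type, mutant-labelled arrays and overexpression, and the chitin synthase gene kkv 9.30, 8.74 and 10.55. The cuticle protein gene TwdlT read 9.91, 10.39 and 12.55, while Tb read 11.60, 11.23 and 11.16 and Gasp 12.55, 12.42 and 12.35. These counts and those of the tissues below stand against the same shares of all rows as the family's. All 7 tested muscle markers, each by its brightest probe set, rose in the mutant-labelled arrays and fell in overexpression, as y did. Their sum went from between 14.59 and 14.62 in wild type to between 15.004 and 15.02 and to between 13.81 and 13.87. The other probe set of Prm was not higher in the mutant-labelled arrays, at 11.73 against 11.90 in wild type. Of 5 tested neuron markers 4 rose and 1 fell in the mutant-labelled arrays, and 1 rose and 4 fell in overexpression. Among those 4, brp was dim in wild type and in overexpression, at 3.99 and 3.45, so its fall is not settled. The sums over the 6 neuron markers on the array were 8.42 to 8.61, 9.07 to 9.16 and 8.03 to 8.10. Among 4 tracheal markers 2 rose and none fell in the mutant-labelled arrays and none rose and 3 fell in overexpression, with sums of 9.01 to 9.02, 9.63 to 9.76 and 8.43 to 8.47. The 5 glial markers had 2 higher and 2 lower, then 0 and 5, with sums of 11.31, 11.61 to 11.64 and 10.27 to 10.28.

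Hemocyte markers, 7 in number, included PPO1 and PPO2, the melanin genes given above, so they are not separate from those. Of the 7, 2 were higher and 4 lower in the mutant-labelled arrays. In overexpression 1 was higher and 6 lower, and yellow-h was lower in both. The 1 higher, Hml, was dim in wild type and in overexpression, so its direction there is not settled. The markers' summed signal was 10.90 to 10.94 in wild type, 10.55 to 10.64 in the mutant-labelled arrays and 9.72 to 9.75 in overexpression. PPO1 and PPO2 were the brightest of them in wild type, at 8.66 and 9.43. This sum also covers unlike members. In the same order Pxn read 8.49, 7.16 and 7.26, while crq read 7.13, 6.97 and 6.46. The 2 higher in the mutant-labelled arrays were srp, which read 8.17, 8.62 and 7.72, and Hml, which read 2.49, 4.17 and 2.82. The 3 midgut markers had 3 and then 2 higher, and their sum was 7.12 to 7.21, 10.42 to 10.45 and 10.89 to 10.92. Most of that sum was Mal-A3, which read 6.87, 10.30 and 10.66. Another, Mal-A1, read 4.38, 6.29 and 8.19, and betaTry was dim in wild type and in overexpression. Of 3 tested fat body markers 1 was higher in each comparison with wild type, and 0 and then 2 were lower. The summed signal of the 4 on the array was 12.52 to 12.53, 12.51 to 12.67 and 12.31, and Fbp1 was dim throughout.

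For each tested member the 2 named genes with the most similar course over the 6 arrays were taken, by the Euclidean distance between log2 values centred on each gene's mean. Closest to y were the cytochrome P450 gene Cyp12e1 (distance 0.16) and CG14570 (0.22). Cyp12e1 was dim in overexpression, at 2.63, so its distance and first place are not settled, while CG14570 read 9.35 in wild type, 10.29 in the mutant-labelled arrays and 7.20 in overexpression. For yellow-d2 they were CG9757 (0.75) and CG15282 (0.84), which read 8.95 and 10.56 in wild type, 4.46 and 5.84 in the mutant-labelled arrays and 11.34 and 12.71 in overexpression. The distances were larger for yellow-d2 than for the other tested members, whose 2 closest genes lay between 0.05 and 0.28 away. Because the values were centred but not scaled, a distance also takes in the size of the changes. Those were largest for yellow-d2, so its distances do not mark an unusual course. Nearest to yellow-e were kermit (0.05) and the cuticle protein gene Cpr66D (0.09), and nearest to yellow-b were mof, the gene of a histone acetyltransferase (0.06), and CG13689 (0.06).

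The other members had CNPYb (0.21) and CG31997 (0.26) for yellow-d, CG1698 (0.27) and CG31321 (0.28) for yellow-e2, Dlish (0.10) and CRAT (0.10) for yellow-f2, and Gbs-76A (0.15) and the homeobox gene caup (0.15) for yellow-h. CG31321 was dim in the mutant-labelled arrays, at 2.73, and so was Dlish, at 3.86, with a wild type mean of 3.97, so their distances are not settled either. The same holds for the distances from yellow-d2 and yellow-e2, themselves dim in the mutant-labelled arrays. No member was among the closest genes of another, but only 2 of the 7644 named genes tested were kept for each. The distances also take in the size of the changes, so this absence does not show that members differ in course.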

How the data were processed

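Transcript levels of 6 samples were taken from the authors' deposited table of log2 probe set values, 18952 probe sets in all. The log2 scale was read from the values. GCRMA and MAS5 are named, without role or version, in the submitters' processing notes, and no genome build is stated there. No further normalization was applied. Groups came from the sample titles.

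Of the probe sets 13647 had 1 symbol in the platform annotation, and 13544 of these were updated through gene identifiers to the RefSeq table of Release 6 plus ISO1 MT. The brightest probe set stood for a gene. Of 17104 rows, 8632 reached 4 (log2) on 2 or more arrays and entered the test with limma 3.58.1 in R 4.3.3 (3-group means model, eBayes with an intensity trend, 3 residual and 7.93 prior degrees of freedom, two-sided, Benjamini-Hochberg adjustment), checked on simulated data. Means carry the SD of 2 arrays. With 2 arrays a group an exact permutation test cannot pass the threshold.

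Members and lists were chosen with earlier results of these data known. Named were all members, grh, genes beside adjoining members, other family genes, list genes changed over 2-fold and the 2 genes nearest to each member. The neighbours of yellow-h, and ovo, were named after their values were seen. Planned promoter and protein comparisons were not made, and no sequence was used here. Alternatives changed the filter, the normalization, the variance model, the probe set rule and the arrays used.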

Additional observations from a re-analysis of the deposited data

Results flagged for a closer look

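The signal of yellow-g, an eggshell gene of the same family, lay outside the tested rows but was above wild type in grh overexpression. Its mean there was 3.98 on the log2 scale, from 4.04 and 3.92, while wild type and the mutant-labelled arrays were at the floor of 2.27. The mean is under the limit of 4 for a measured level, so no fold is given and the difference was not tested.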

How the results depend on the processing

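All 24 member results (8 members in 3 comparisons) were recomputed under 18 alternatives, and 23 kept their direction and their side of the threshold under each of them. The exception was yellow-e in the mutant-labelled arrays against wild type, which did not pass in any setting and whose log2 fold change of 0.05 turned to -0.0133 when each array was centred on its median. That centring moved the median of all rows by -0.06, -0.19 and -0.13 in the 3 comparisons, by its construction. The count of called members, 6, 8 and 8 in the comparisons in the order of the report, was the same under every alternative except the omission of the filter, which added yellow-f at 0.42 in overexpression against wild type (limma adjusted p = 0.00641) and 0.33 between the altered genotypes (adjusted p = 0.0105), a gene dim on all arrays. Leaving out each array in turn gave 6, 8 and 8 each time, with a lone array assumed to vary like the other groups. With the replicate number as a replicate block the counts were also 6, 8 and 8. Replicate deviations of same-numbered arrays correlated at 0.165, 0.245 and 0.136 between genotypes, but 2 numbers cannot show a pairing, and no label states one. Levels near the floor limit what can be said of yellow-e2, yellow-e3, yellow-f and of yellow-d2 in the mutant-labelled arrays.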
